A study of Mus musculus with 6 samples.

Results

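Rab proteins are small GTPases that mark membranes of the secretory and endocytic routes, and each route has its own members. The 56 Rab genes described here are the protein-coding genes named Rab plus a number and at most 1 letter and 1 further digit that had at least 10 counts summed over the 6 libraries, of 56350 genes in the count table. A further 3 genes with such a symbol, Rab3c, Rab9b and Rab33a, fell under that minimum, with 2, 3 and 9 counts. Bulk RNA sequencing measured polyA RNA of whole mouse liver in 3 libraries labelled wild-type (WT) and 3 labelled as a hepatocyte-specific Atg14 knockout (HepKO). Atg14 directs a lipid kinase to the sites where autophagosomes form. The labels used here do not give age, sex, diet, the Cre driver or whether the 3 samples of a group were separate animals. Each p-value measures the spread between these samples, part of which may be technical. The comparison asks which Rab mRNAs differed in liver with Atg14 targeted in hepatocytes.

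A Rab protein cycles between a GDP-bound form, held in the cytosol by GDP dissociation inhibitors (GDIs), and a GTP-bound form on its membrane. Exchange factors load GTP, GTPase-activating proteins (GAPs) end the active state, and effectors bind the active form to tether, move or fuse vesicles. In hepatocytes the family serves secretion of plasma proteins and lipoproteins, delivery to the bile canaliculus, endocytosis and the fusion of autophagosomes with lysosomes.

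The membrane anchor of a Rab is a lipid added to cysteines at the end of the protein, and this feature can be read from the coding sequence. In GENCODE M21 (GRCm38, the assembly also called mm10) all 56 genes had a cysteine codon, TGC or TGT, among the last 5 codons before the stop. There were 47 genes with 2 such codons and 9 with 1. The last 30 coding bases, stop codon included, are given for genes whose level or balance the results turn on, and for Rab7 as the most abundant member. They run 5′ to 3′ on the coding strand, with every cysteine codon in capitals.
Rab8a (chr8:72180108-72180137, plus strand): accagcttcttccggTGCagtctcctgtga
Rab8b (chr9:66847719-66847748, minus strand): accagtttcttccgcTGTtctctgctttga
Rab22a (chr2:173701090-173701119, plus strand): ccatcggagccaaagcgaagcTGCTGCtga
Rab31 (chr17:65654406-65654435, minus strand): agcttgcaagccagccgtcggTGCTGCtga
Rab10 (chr12:3249787-3249816, minus strand): gtgacgggctggaagagcaagTGCTGCtga
Rab13 (chr3:90225554-90225583, plus strand): aagaagaagaacaagTGCttgttaggctga
Rab5b (chr10:128679530-128679559, minus strand): cagaacaagagccagTGTTGTagcaactga
Rab5c (chr11:100716047-100716076, minus strand): gccagccggagccagTGCTGCagcaactga
Rab9 (chrX:166457708-166457737, minus strand): aagcccaagccaaactcatctTGCTGTtga
Rab30 (chr7:92835910-92835939, plus strand): agctatttgactTGTTGTaatttcaactaa
Rab7 (chr6:88000435-88000464, minus strand): aaggcctccgcagaaagcTGCagtTGTtga
Rab8a, Rab8b and Rab13 each carried a single cysteine codon near the end, and the other 8 carried 2. Among the 17 paralog pairs compared below, coding identity was 59.9% to 78.5% and the longest identical stretch was 38 bases, in Rab1a and Rab1b.

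Libraries held 33145684 to 48951937 counts. Atg14 had 20.9, 22.2 and 21.05 CPM in WT replicates 1 to 3, and 5.66, 8.45 and 7.95 CPM in HepKO replicates 1 to 3. All 3 HepKO libraries lay below every WT library (log2 fold change -1.54 ± 0.16 SE, edgeR quasi-likelihood test with Benjamini-Hochberg adjustment, adjusted p = 0.000469). CPM are read counts divided by library size, here after scaling by the trimmed mean of M-values (TMM). HepKO replicate 1 stood apart in sex-linked genes, with 523 CPM of Xist against 0.0676 to 0.490 CPM in the other libraries and 0.0517 CPM of Ddx3y against 66.0 to 102 CPM, so the 3 HepKO libraries did not all come from 1 animal. Each named call was therefore also tested without that library.

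Markers of macrophages, stellate cells and hepatocytes differed between the groups in most cases, where 19.5% of all genes tested were higher and 18.7% lower. Of 8 Kupffer cell markers 7 were higher in HepKO, with summed levels of 166 to 313 CPM in WT and 429 to 776 CPM in HepKO. All 7 tested markers listed for recruited macrophages and monocytes were higher, with sums of 41.8 to 88.2 CPM in WT and 197 to 314 CPM in HepKO. Lyz2 made up most of each sum, at 32.3 to 64.4 CPM in WT and 103 to 177 CPM in HepKO. Trem2, the eighth of that list, was at 0 in WT and in 2 HepKO libraries. Whether this rise is separate from that of the Kupffer list was not tested. Stellate cell and fibroblast markers were higher in 5 of 8, summing to 189 to 285 CPM in WT and 522 to 641 CPM in HepKO. Neutrophil markers were higher in 3 of 3 tested, with sums of 1.73 to 4.49 CPM in WT and 6.87 to 20.1 CPM in HepKO, and Ly6g was at 0 in all but HepKO replicate 3. Lymphocyte markers were higher in 2 of 8 (25%, near the share of all genes), summing to 3.85 to 4.93 CPM in WT and 7.13 to 11.2 CPM in HepKO. Endothelial markers were higher in 1 of 8 (12.5%), and their sums overlapped, at 210 to 264 CPM in WT and 222 to 282 CPM in HepKO. Of 8 hepatocyte markers 7 were lower, with sums of 98220 to 124300 CPM in WT and 44190 to 56340 CPM in HepKO. Alb made up most of each sum, at 68825 to 90310 CPM in WT and 29488 to 36371 CPM in HepKO. The log2 fold changes of the 8 ran from -1.49 to -0.35, with a median of -0.66, and Fgb was not called. In whole tissue a change in the number of cells of a type and a change in RNA per cell cannot be told apart.

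Rab genes changed in a minority of cases, and in both directions. Of the 56, 47 passed the filter on low counts, and 8 of those rose and 6 fell in HepKO (29.8%), while 38.2% of all 16051 genes tested were called. The share called was 19.5% higher and 18.7% lower over all genes. The genes that rose were Rab3b, Rab36, Rab8b, Rab31, Rab39, Rab13, Rab20 and Rab35, and the genes that fell were Rab30, Rab43, Rab9, Rab17, Rab5b and Rab14. The median log2 fold change was 0.04 over the 47 and 0.01 over all genes tested. The groups' CPM did not overlap for 11 genes above WT and 12 below (48.9%), where 53.5% of all genes tested showed no overlap (27.1% above and 26.4% below). Without HepKO replicate 3, 4 rose, and without HepKO replicate 1 or WT replicate 2, 5 rose. Calls over all genes fell too, from 3125 higher with every library to 2337 to 2816 without 1 library.

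**Figure D1:**
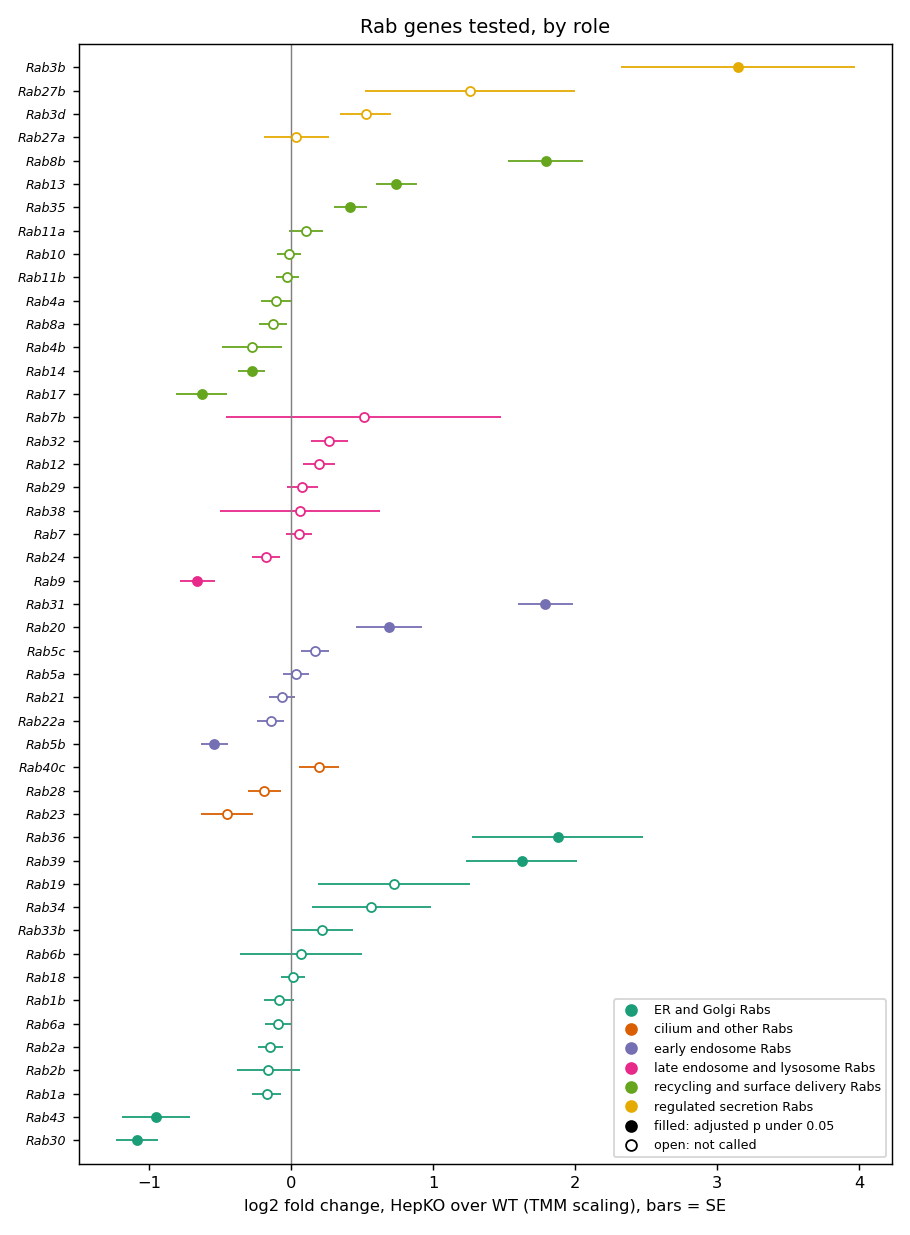
Log2 fold change of the 47 tested Rab genes (x axis, HepKO over WT, bars are SE) with the genes arranged by role on the y axis; filled points passed an adjusted p of 0.05. The 8 higher and 6 lower genes are spread over 5 of the 6 roles, and the 3 tested genes of the cilium and other role have open points.

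The rises and falls depended on how libraries were scaled. Rab genes together took 0.174% to 0.180% of the counts of a WT library and 0.236% to 0.242% of a HepKO library. After TMM scaling the family summed to 2072 to 2172 CPM in WT and 1988 to 2039 CPM in HepKO. With library totals in place of TMM, 31 of the 47 tested Rab genes were higher and 1 lower. Of all 16051 genes tested, 7442 were higher and 937 lower on that scale. The Rab median was then 0.54, and the median of all genes was 0.52. Every fold below is under TMM, and a gene named as lower is lower relative to a median gene near 0.

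All 8 Rab genes that rose had means under 20 CPM, while the genes that fell lay on both sides of that level. The 22 tested Rab genes with a mean of at least 20 CPM held 0 that rose and 4 that fell, where 15.7% and 35.7% of the 5764 genes at that level rose and fell. Of the 25 scarcer Rab genes 8 rose and 2 fell, where 21.6% and 9.22% of 10287 scarcer genes did. The level of 20 CPM was set after the values were seen. At the higher level 18 Rab genes were not called, with log2 fold changes of -0.18 to 0.27 and SE of at most 0.13.

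**Figure D2:**
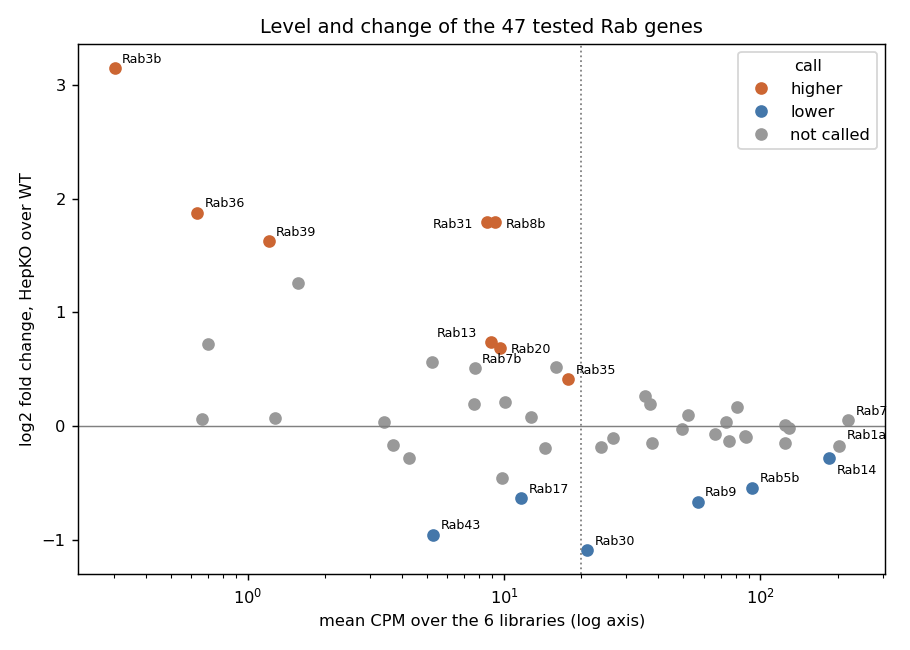
Mean CPM over the 6 libraries (x axis, log scale, dotted line at 20 CPM) and log2 fold change of HepKO over WT (y axis) for the 47 tested Rab genes, coloured by call. All 8 higher genes lie left of the dotted line, and 4 of the 6 lower genes lie right of it.

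Levels per kilobase of exon, which allow a rough comparison of genes, put Rab7 first. The length took in every annotated exon of a gene, used in liver or not, so genes with long annotated exons may rank too low. Rab14, with a WT mean of 203 CPM over 13589 bases, had 14.95 CPM per kilobase in WT. Rab7, which directs late endosomes and autophagosomes to fuse with lysosomes, had 220, 212 and 217 CPM in WT replicates 1 to 3 and 216, 217 and 239 CPM in HepKO replicates 1 to 3. Its mean was 82.9 CPM per kilobase in WT and 85.9 in HepKO, and the groups overlapped (log2 fold change 0.05 ± 0.09 SE, edgeR adjusted p = 0.697). Rab7 made up 13.2% to 15.2% of the family's summed level per kilobase. Next came Rab2a and Rab1a, both of the route between endoplasmic reticulum (ER) and Golgi, at 61.2 and 56.7 CPM per kilobase in WT and 55.2 and 50.2 in HepKO. Rab1b, a paralog of Rab1a, had 39.6 in WT and 37.3 in HepKO, Rab10, a carrier of cargo to the cell surface, had 37.1 and 36.8, and Rab5c, of early endosomes, had 34.8 and 39.1. The first 6 genes together held 48.9% to 51.6% of the family's summed level per kilobase.

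None of those other 5 was called. Rab2a had 129, 124 and 139 CPM in WT and 117, 115 and 121 CPM in HepKO. All HepKO libraries lay below WT, but the difference was not called (log2 fold change -0.15 ± 0.09 SE, edgeR adjusted p = 0.225). Rab1a had 231, 217 and 198 CPM in WT and 179, 190 and 204 CPM in HepKO, and Rab1b had 84.1, 85.2 and 101 CPM against 84.8, 90.1 and 79.7 CPM. For both genes the groups overlapped. Rab10 stood at 129, 130 and 133 CPM in WT and 127, 135 and 126 CPM in HepKO, and Rab5c at 71.2, 76.2 and 81.6 CPM against 92.3, 81.1 and 83.9 CPM, again with overlap. Under library totals all 6 genes were called higher, with log2 fold changes of 0.34 for Rab1a to 0.68 for Rab5c, on either side of the median of 0.52 of all genes on that scale.

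Among the 14 tested Rab genes of the ER and Golgi, 2 rose and 2 fell (28.6%, where 38.2% of all genes were called). Rab30, a Golgi resident, had 29.8, 27.7 and 28.8 CPM in WT replicates 1 to 3 and 16.7, 11.9 and 11.9 CPM in HepKO replicates 1 to 3. Every HepKO library was below every WT library, and Rab30 fell 2.13-fold (log2 fold change -1.09 ± 0.15 SE, edgeR adjusted p = 0.00128), a call that also held under library totals. Rab43, which acts in transport at the Golgi, had 5.64, 7.38 and 7.87 CPM in WT and 3.84, 4.30 and 2.64 CPM in HepKO. It fell with no overlap (log2 fold change -0.95 ± 0.24 SE, edgeR adjusted p = 0.0168), but the call ended without WT replicate 2 (adjusted p = 0.0583), without WT replicate 3 (0.0716) and under library totals (0.168). Of the exon bases of Rab43, 75.4% are shared on the same strand with the annotated gene Gm45140, so its count may not hold all of its reads.

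The 2 ER and Golgi genes that rose were scarce. Rab39, a Golgi and endosome Rab, had 0.473, 0.613 and 0.673 CPM in WT and 1.48, 1.47 and 2.52 CPM in HepKO. The groups did not overlap (log2 fold change 1.62 ± 0.39 SE, edgeR adjusted p = 0.0134, and 0.0527 without HepKO replicate 3). Rab36, a Golgi Rab, had 0.169, 0.139 and 0.498 CPM in WT and 0.723, 1.36 and 0.915 CPM in HepKO. It passed the test (log2 fold change 1.88 ± 0.60 SE, edgeR adjusted p = 0.0405) with all libraries but lost the call when any library other than WT replicate 3 was left out (adjusted p = 0.0553 to 0.132).

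Early endosome Rab genes, 7 in number, held 2 that rose and 1 that fell (42.9%, where 38.2% of all genes were called). Rab31, which moves cargo between the Golgi and endosomes, had 4.16, 4.37 and 2.99 CPM in WT and 11.7, 14.7 and 13.5 CPM in HepKO. All HepKO libraries lay far above WT, and Rab31 rose 3.46-fold (log2 fold change 1.79 ± 0.19 SE, edgeR adjusted p = 0.000488). Rab20, found on endosomes and phagosomes, had 8.78, 7.41 and 6.001 CPM in WT and 15.4, 11.5 and 8.82 CPM in HepKO. Its groups nearly touched (log2 fold change 0.69 ± 0.23 SE, edgeR adjusted p = 0.0493), and the call ended on leaving out any library but HepKO replicate 3 (adjusted p = 0.052 to 0.155). On the opposite strand, 25.6% of Rab20 exon bases are shared with E230013L22Rik. Rab5b, of early endosome fusion, had 106, 115 and 110 CPM in WT and 69.6, 81.1 and 76.4 CPM in HepKO. It fell 1.46-fold with no overlap (log2 fold change -0.54 ± 0.10 SE, edgeR adjusted p = 0.00339), though under library totals the log2 fold change was -0.03 and not called.

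Recycling and surface delivery Rab genes, 11 of 13 tested, held 3 that rose and 2 that fell (45.5%, where 38.2% of all genes were called). Rab8b, a carrier from the Golgi and recycling endosomes to the surface, had 4.56, 5.24 and 2.61 CPM in WT and 14.4, 11.9 and 16.6 CPM in HepKO. All HepKO libraries lay well above WT, and Rab8b rose 3.46-fold (log2 fold change 1.79 ± 0.26 SE, edgeR adjusted p = 0.00168). Rab13, which serves delivery to epithelial tight junctions, had 6.39, 6.71 and 6.94 CPM in WT and 12.3, 11.3 and 9.83 CPM in HepKO. It rose 1.67-fold with no overlap (log2 fold change 0.74 ± 0.15 SE, edgeR adjusted p = 0.0057).

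The smaller changes of that role were less stable. Rab35, of fast endocytic recycling, had 15.002, 15.2 and 15.5 CPM in WT and 18.3, 22.8 and 19.9 CPM in HepKO (log2 fold change 0.42 ± 0.12 SE, edgeR adjusted p = 0.024). Its groups did not overlap, but the call remained only on leaving out HepKO replicate 1 and ended without any of the other 5 libraries (adjusted p = 0.0585 to 0.0799). Rab17, a Rab of polarised epithelia, had 18.04, 12.2 and 12.4 CPM in WT and 8.56, 9.59 and 9.35 CPM in HepKO (log2 fold change -0.63 ± 0.18 SE, edgeR adjusted p = 0.0248). The call of Rab17 ended without WT replicate 1 or any 1 HepKO library (adjusted p = 0.053 to 0.0625) and under library totals. Rab14, which links endosomes and the Golgi, had 210, 192 and 207 CPM in WT and 161, 166 and 176 CPM in HepKO (log2 fold change -0.28 ± 0.09 SE, edgeR adjusted p = 0.0457). Leaving out any 1 of the 6 libraries ended that call (adjusted p = 0.0716 to 0.136), and under library totals the sign turned (log2 fold change 0.23, not called).

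Late endosome and lysosome Rab genes gave 1 call among 8 (12.5%, where 38.2% of all genes were called). Rab9, which returns mannose 6-phosphate receptors from late endosomes to the Golgi, had 81.4, 65.9 and 62.4 CPM in WT and 47.5, 42.5 and 42.6 CPM in HepKO. It fell 1.58-fold with no overlap (log2 fold change -0.66 ± 0.12 SE, edgeR adjusted p = 0.00423), and was not called under library totals (log2 fold change -0.15). Rab9 lies on the X chromosome, and without HepKO replicate 1, the library high in Xist, it was still called. Rab32, of lysosome-related organelles, had 32.2, 34.6 and 29.6 CPM in WT and 35.4, 34.9 and 45.7 CPM in HepKO, a difference that was not called (edgeR adjusted p = 0.146). Of 13 Rab genes linked to autophagy in earlier work, 1 rose (Rab8b) and 1 fell (Rab9) (15.4%, where 38.2% of all genes were called). Their median log2 fold change was 0.03.

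Rab7b, a lysosomal relative of Rab7, split the WT libraries. It had 0.710, 1.28 and 17.0 CPM in WT replicates 1 to 3 and 11.5, 6.20 and 9.43 CPM in HepKO replicates 1 to 3, so WT replicate 3 was the highest of all. The gene was not called over the 6 libraries (log2 fold change 0.51 ± 0.97 SE, edgeR adjusted p = 0.717). Without WT replicate 3 it was called higher (log2 fold change 3.18, adjusted p = 0.00253). The annotated neighbours with at least 100 counts did not share the split. Ctse, just upstream, had 1.86, 4.35 and 3.37 CPM in WT, and Pm20d1, downstream, had 157, 167 and 187 CPM. Rab7b was chosen for this description after its values were seen.

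Regulated secretion Rab genes were scarce in liver, and 4 of 8 could be tested. Rab3b, of the family that docks secretory vesicles, had 0, 0.0557 and 0.117 CPM in WT and 0.706, 0.357 and 0.584 CPM in HepKO. It passed the test (log2 fold change 3.15 ± 0.83 SE, edgeR adjusted p = 0.019) on 6 WT counts in all, and the call ended without WT replicate 2 (adjusted p = 0.0708), HepKO replicate 1 (0.0602) or HepKO replicate 3 (0.054). Rab3d, the most abundant of the role, had 14.3, 15.3 and 9.51 CPM in WT and 19.1, 19.9 and 17.2 CPM in HepKO, with no overlap but just outside the threshold (edgeR adjusted p = 0.0529). Rab3d was called higher with DESeq2 (adjusted p = 0.0253), limma-voom (0.0382), RLE factors (0.0451), library totals (0.00319), either other filter (0.0249 and 0.0417) and without WT replicate 2 (0.0328), but not without any other single library (0.0794 to 0.142). The 9 untested members, Rab3a, Rab15, Rab25, Rab26, Rab37, Rab39b, Rab40b, Rab42 and Rab44, had at most 33 counts in a library.

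**Figure D3:**
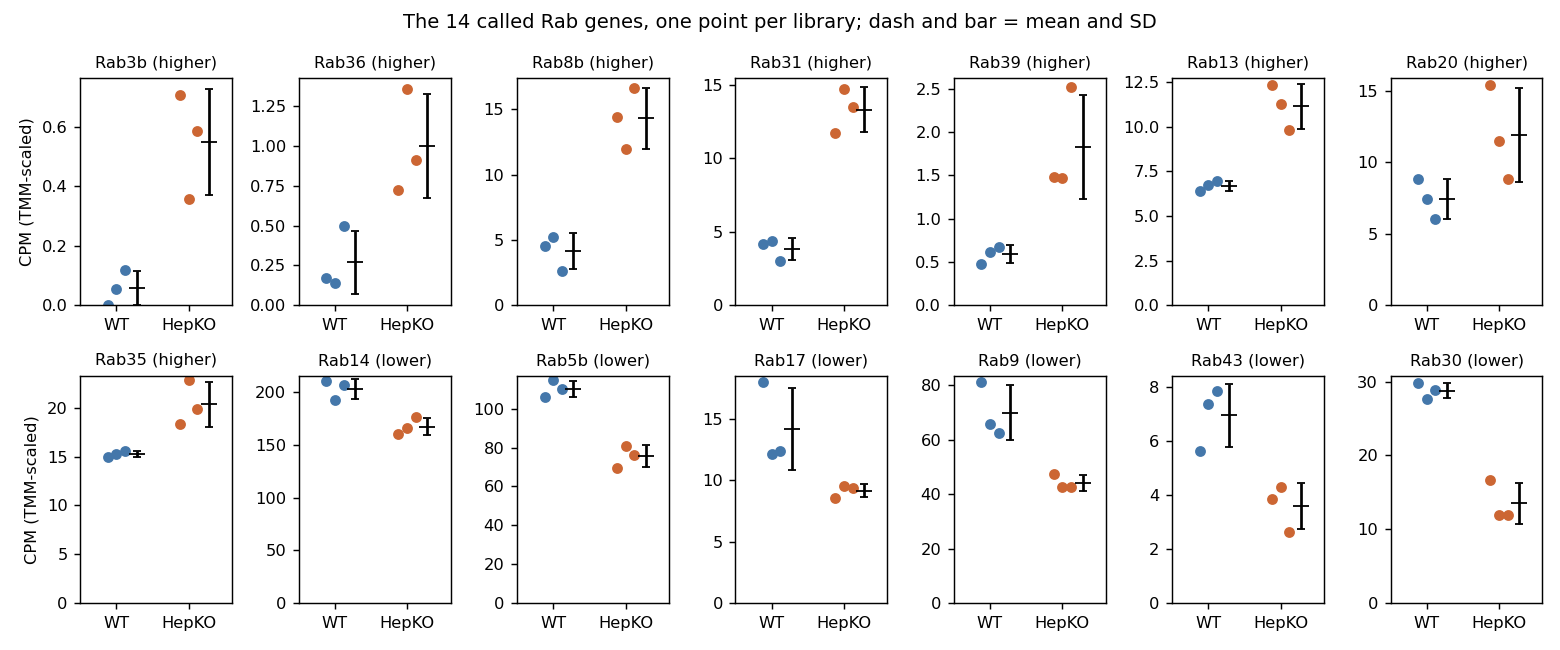
CPM (y axis, linear, from 0) of the 14 called Rab genes in each WT and HepKO library, with the group mean and SD beside the points. No gene has a HepKO point within its WT range, and Rab20 has the narrowest gap relative to its spread, 8.78 against 8.82 CPM.

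The balance within pairs of related Rab genes does not depend on scaling, since both counts come from 1 library. Of 17 pairs, 4 had log2 ratios with no overlap between the groups. Among single genes tested 53.5% did not overlap, and the share among pairs of other genes was not computed. In each of the 4 pairs 1 member was itself called (Rab8b, Rab31, Rab13 or Rab5b), so the ratios are not separate evidence. In each the difference had the smallest p that 3 against 3 libraries allow (exact permutation test, 2-sided, p = 0.10, or 0.425 adjusted over the 17 pairs), so none could pass 0.05. Rab8a exceeded Rab8b by a log2 ratio of counts of 4.25, 3.80 and 4.87 in WT and 2.27, 2.65 and 2.12 in HepKO. The scarce Rab8b thus moved closer to Rab8a, which had 87.2, 73.2 and 76.6 CPM in WT and 69.3, 75.1 and 72.0 CPM in HepKO and was not called (edgeR adjusted p = 0.333).

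The pair of Rab22a, an early endosome Rab, and Rab31 shifted by a like amount. Its log2 ratio was 3.26, 3.22 and 3.67 in WT and 1.498, 1.38 and 1.43 in HepKO, a difference of -1.95. Rab22a itself had 39.8, 40.9 and 38.3 CPM in WT and 32.99, 38.2 and 36.4 CPM in HepKO and was not called (edgeR adjusted p = 0.264). For Rab10 over Rab13 the log2 ratio was 4.33, 4.27 and 4.25 in WT and 3.36, 3.58 and 3.67 in HepKO, a difference of -0.75. By count, which is not corrected for exon length, Rab5b exceeded Rab5c in WT (log2 ratio 0.57, 0.59 and 0.43) but not in HepKO (-0.41, 0.00 and -0.14). In HepKO Rab5b was the lower by count in replicates 1 and 3 and level with Rab5c in replicate 2. Per kilobase of exon Rab5b lay below Rab5c in every library of both groups, with WT means of 26.23 and 34.8 CPM per kilobase. That order rests on the lengths of all annotated exons, 4201 bases for Rab5b and 2194 for Rab5c. The other 13 pairs overlapped, among them Rab11a and Rab11b of recycling endosomes, with means of 0.007 ± 0.129 (SD, n = 3) in WT and 0.133 ± 0.156 (SD, n = 3) in HepKO. With each library left out or a pseudocount of 2, the difference was -2.22 to -1.68 for Rab8a over Rab8b and -2.03 to -1.80 for Rab22a over Rab31; its sign could not turn on leaving out a library, since the pairs were picked for not overlapping.

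**Figure D4:**
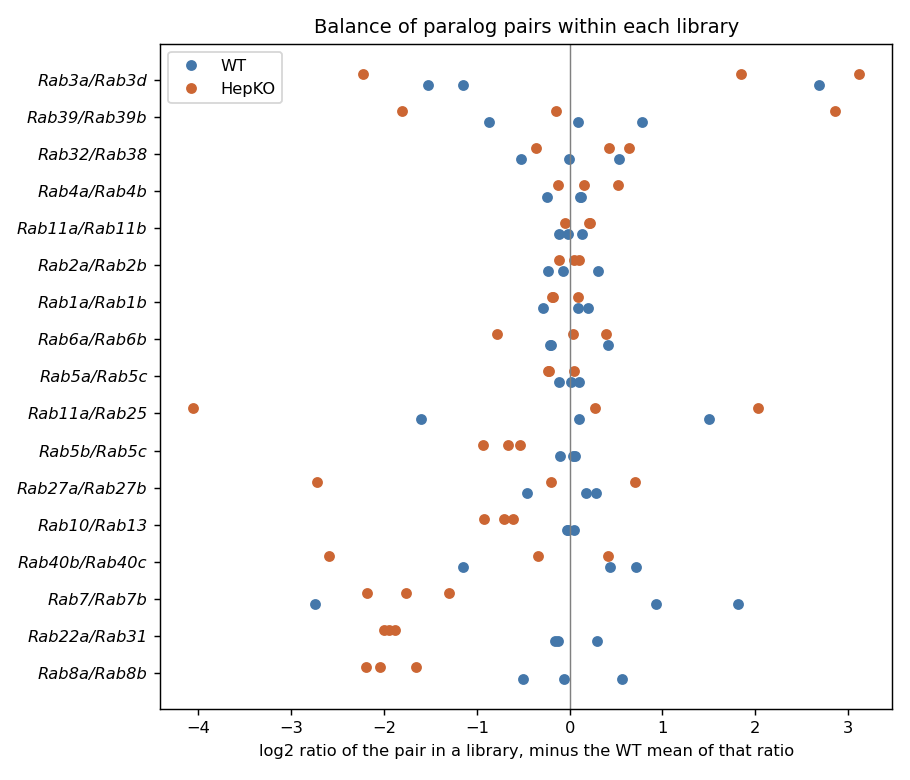
Log2 ratio of the counts of 2 related Rab genes in each library, drawn as the distance from the WT mean of that pair (x axis), for 17 pairs (y axis). HepKO points lie wholly left of the WT points for 4 pairs, Rab8a/Rab8b, Rab22a/Rab31, Rab10/Rab13 and Rab5b/Rab5c.

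Rab8b, Rab31 and the macrophage and the stellate and fibroblast sums were higher in every HepKO library than in any WT library. That pattern held for 27.1% of all genes tested, so sharing it does not tie these genes together. Cd68, a macrophage marker, had 6.05, 10.6 and 5.80 CPM in WT and 50.8, 31.1 and 42.4 CPM in HepKO. Col3a1, a fibroblast collagen, had 25.2, 39.9 and 23.2 CPM in WT and 152, 221 and 143 CPM in HepKO. Within HepKO, Rab8b was highest in replicate 3 and both macrophage sums were highest in replicate 1. Rab31 and the stellate and fibroblast sum were both highest in replicate 2. Rab31 was higher in replicate 3 than in replicate 1, while the stellate and fibroblast sum was the reverse. The part of these cells in the rises of Rab8b, Rab31, Rab39, Rab13, Rab20, Rab35, Rab36 and Rab3b was not tested. The hepatocyte marker sum and the 6 Rab genes that fell were lower in HepKO, and a link between them was not tested.

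HepKO replicate 2 stood apart for ductular genes and for Rab27b, a Rab of secretory granules. Rab27b had 0.743, 1.31 and 0.703 CPM in WT and 1.15, 4.86 and 0.610 CPM in HepKO, and was not called (edgeR adjusted p = 0.218). Rab25, an epithelial recycling Rab that was too scarce to test, had 31 counts in HepKO replicate 2 and at most 4 in any other library. Of 8 cholangiocyte and ductular markers 3 were called higher (37.5%, where 19.5% of all genes were higher). The 8 summed to 30.5 to 32.2 CPM in WT and to 33.46, 81.4 and 35.8 CPM in HepKO replicates 1 to 3. Within the sums Sox9, called higher, had 7.16, 4.71 and 2.75 CPM in WT and 9.68, 23.8 and 16.5 CPM in HepKO. Krt23, not called, had 4.29, 11.1 and 14.1 CPM in WT and 6.49, 7.69 and 2.44 CPM in HepKO. The part of ductular cells in the Rab27b and Rab25 counts was not tested.

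**Figure D5:**
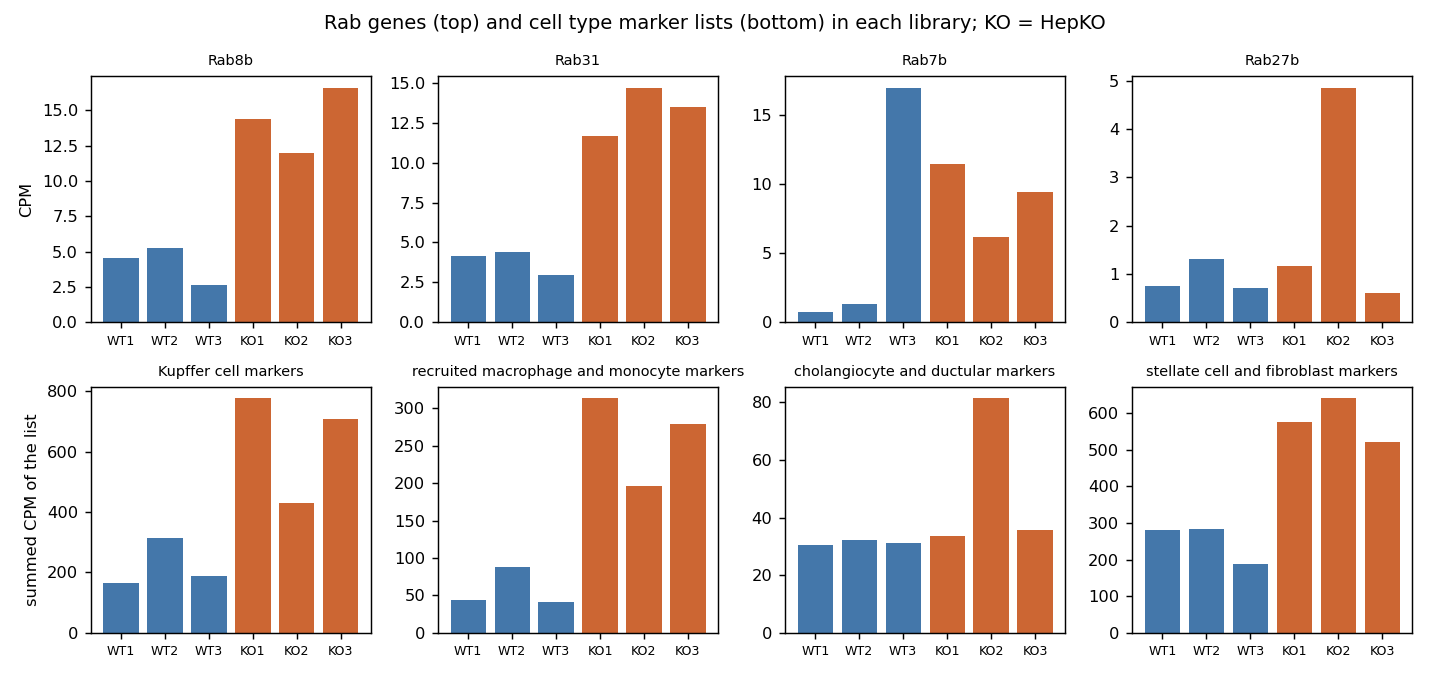
CPM of Rab8b, Rab31, Rab7b and Rab27b in each library (top, bars from 0) and summed CPM of 8 Kupffer, 8 recruited macrophage, 8 ductular and 8 stellate or fibroblast markers (bottom). Rab8b and Rab31 are high in all 3 HepKO libraries, Rab7b is highest in WT replicate 3, and Rab27b and the ductular sum are highest in HepKO replicate 2.

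Genes that load, recycle and read Rab proteins changed at about the rate of all genes. Of 134 tested in 4 lists 29 rose and 26 fell (41.0%, where 38.2% of all genes were called), with a median log2 fold change of 0.02. Fewer fell when a library was left out, 13 without HepKO replicate 3, 12 without WT replicate 2 and 11 without WT replicate 3. Over all genes 3006 were lower with every library and 2055 to 2896 without 1 library. In the prenylation and recycling list 0 of 7 rose and 3 fell (42.9%, where 38.2% of all genes were called). Gdi2, which draws Rab proteins off membranes, had 414, 414 and 408 CPM in WT and 322, 318 and 322 CPM in HepKO. It fell under TMM with no overlap (log2 fold change -0.36 ± 0.09 SE, edgeR adjusted p = 0.0155) but turned under library totals (0.15, not called). Rabggta, a subunit of the enzyme that attaches the lipid to the cysteines shown above, had 17.0, 22.5 and 25.1 CPM in WT and 15.5, 14.1 and 15.8 CPM in HepKO (log2 fold change -0.51 ± 0.15 SE, edgeR adjusted p = 0.0328). Both calls depended on single libraries. Gdi2 was lost without WT replicate 2 or 3 or HepKO replicate 2 or 3 (adjusted p = 0.0509 to 0.0781), and Rabggta without any 1 library other than WT replicate 1 (0.058 to 0.147).

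Exchange factors numbered 39, of which 10 rose and 7 fell (43.6%, where 38.2% of all genes were called). St5, a DENN domain protein, had 21.1, 26.9 and 24.6 CPM in WT and 44.4, 45.6 and 49.2 CPM in HepKO, with every HepKO library above WT (log2 fold change 0.94 ± 0.11 SE, edgeR adjusted p = 0.000767). Ankrd27, an exchange factor for Rab21 that also binds Rab32, had 33.1, 32.8 and 26.02 CPM in WT and 55.2, 54.2 and 48.1 CPM in HepKO (log2 fold change 0.78 ± 0.12 SE, edgeR adjusted p = 0.00209). Dennd5b, another DENN domain protein, fell from 191, 186 and 181 CPM to 116, 139 and 121 CPM (log2 fold change -0.57 ± 0.10 SE, edgeR adjusted p = 0.00371), without a call under library totals.

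Of 34 tested GAPs 5 rose and 6 fell (32.4%, where 38.2% of all genes were called). Tbc1d16, a GAP of endocytic recycling, fell from 39.0, 36.8 and 39.7 CPM in WT to 13.9, 18.5 and 14.2 CPM in HepKO (log2 fold change -1.31 ± 0.13 SE, edgeR adjusted p = 0.000378). Tbc1d1, known from traffic of the glucose transporter GLUT4, rose from 7.67, 7.41 and 5.59 CPM to 18.6, 15.1 and 15.2 CPM (log2 fold change 1.24 ± 0.17 SE, edgeR adjusted p = 0.00115). Tbc1d2b rose by less, from 22.6, 20.1 and 21.3 CPM to 31.6, 32.8 and 30.8 CPM (log2 fold change 0.57 ± 0.09 SE, edgeR adjusted p = 0.00252). In none of the 3 did the groups overlap.

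Effectors numbered 55 tested, of which 14 rose and 10 fell (43.6%, where 38.2% of all genes were called). Osbpl1a, a sterol-binding effector of Rab7 on late endosomes, had 196, 183 and 187 CPM in WT and 104, 102 and 112 CPM in HepKO. It fell 1.78-fold (log2 fold change -0.83 ± 0.09 SE, edgeR adjusted p = 0.000507) while Rab7 was not called. Micall2, which binds Rab13 and Rab8 at junctions, had 1.66, 2.09 and 1.11 CPM in WT and 7.16, 6.67 and 6.58 CPM in HepKO (log2 fold change 2.07 ± 0.26 SE, edgeR adjusted p = 0.000925). Myo5a, a motor that carries Rab-marked vesicles along actin, had 1.25, 1.14 and 0.849 CPM in WT and 4.41, 4.10 and 4.65 CPM in HepKO (log2 fold change 2.02 ± 0.26 SE, edgeR adjusted p = 0.000953).

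Promoter sequence was at hand from RefSeq (GRCm38.p6) for 45 of the 56 genes, in a window from 250 bases before to 50 after a start. The motifs were searched on both strands. The E-box core CACGTG was in 13.3% of the Rab genes' windows and 11.4% of the 11093 tested genes with a window. TGACNNNGC, the core of the antioxidant response element, was in 17.8% and 16.7%, TGANTCA, the AP-1 site, in 6.7% and 6.7%, and GGGCGG, the GC box, in 75.6% and 64.7%. TGACNNNGC and TGANTCA can overlap. Of the called genes with a window, Rab8b and Rab43 held TGACNNNGC and Rab20 held CACGTG. The 250 bases before the starts of Rab8b (chr9:66919706-66919955, minus strand) and Rab31 (chr17:65772753-65773002, minus strand) are shown because both rose 3.46-fold, the largest of the rises called without each library in turn. Matches of TGACNNNGC and GGGCGG are in capitals.
Rab8b: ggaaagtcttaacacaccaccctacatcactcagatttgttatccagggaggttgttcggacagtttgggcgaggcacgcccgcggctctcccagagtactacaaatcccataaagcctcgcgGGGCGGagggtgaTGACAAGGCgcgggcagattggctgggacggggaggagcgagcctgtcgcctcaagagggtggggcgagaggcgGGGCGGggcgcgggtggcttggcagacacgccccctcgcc
Rab31: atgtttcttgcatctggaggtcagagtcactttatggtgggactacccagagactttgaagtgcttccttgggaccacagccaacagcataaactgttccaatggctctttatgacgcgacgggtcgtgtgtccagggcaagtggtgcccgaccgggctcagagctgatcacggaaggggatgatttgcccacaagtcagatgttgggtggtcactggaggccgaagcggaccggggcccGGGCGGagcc
The Rab8b stretch held 1 match of TGACNNNGC and 2 of GGGCGG, and the Rab31 stretch held 0 and 1.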

How the data were processed

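Whole mouse liver polyA RNA was sequenced in 6 libraries. The authors deposited unnormalised counts of reads for each gene. The submitters' processing notes name bcl2fastq, STAR 2.7.11a, featureCounts (Subread 2.0.0), edgeR 3.40.2 and mm10, with no order. Annotation release and strand setting: not given in the sources used here. Thus overlapping and antisense genes could not be told apart. IDs were matched without version to GENCODE M21 (55480 of 56350). Members and lists were chosen with earlier results of these data known.

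Genes were filtered with filterByExpr (minimum count 10) and TMM-scaled. HepKO was compared with WT by the 2-sided quasi-likelihood test of edgeR 4.0.16 (R 4.3.3), adjusted over all 16051 genes and called under 0.05. SE was the log2 fold change over the square root of F. The test was tried on simulated counts. Paralog ratios used counts plus 0.5. The naming rule took the called Rab genes (at most 12 each way), the 6 highest per kilobase, pairs without overlap, Atg14 and 3 genes per regulator list, of which 1 gene is not reported here. Other named genes were chosen after their values were seen. Alternatives included DESeq2 1.42.0 and limma-voom (limma 3.58.1). Replicates within a group differed beyond counting noise (chi-square over its degrees of freedom, 24.2 to 117).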

Additional observations from a re-analysis of the deposited data

How the results depend on the processing

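Of 8 higher and 6 lower Rab genes, Rab8b, Rab31 and Rab30 were called under all 16 alternatives, and Rab13, Rab5b and Rab9 in all 6 fits without 1 library. Library totals gave 31 and 1 Rab genes (median 0.54), 82 and 2 regulators and effectors, and 7442 and 937 of all genes. An adjusted p under 0.01 gave 3 and 3, 17 and 9, and 1751 and 1693, and a minimum log2 change of 1 either way gave 5 and 1, 17 and 1, and 2063 and 922. Without 1 library in turn, 4 to 7 Rab genes were higher and 4 lower in each fit (median -0.0022 to 0.066), with 20 to 27 and 11 to 21 regulators and effectors and 2337 to 2816 and 2055 to 2896 of all genes. Under library totals the log2 fold change turned to 0.23 for Rab14, 0.36 for Rab2a, 0.34 for Rab1a, 0.43 for Rab1b, 0.50 for Rab10, 0.38 for Rab8a, 0.37 for Rab22a and 0.15 for Gdi2. Values near 0 also turned, for Rab10 to 0.012 with at least 1 CPM in 3 libraries, 0.0091 without WT replicate 2 and 0.018 without WT replicate 3. Without 1 library in turn Rab10 ranged from -0.053 to 0.018, Rab1b from -0.14 to 0.024, Rab7 from -0.0050 to 0.076 and Rab7b from -0.014 (without WT replicate 1) to 3.18. Beyond the scaling itself, the cause was not tested. Libraries with the same replicate number showed no shared deviation (correlations of deviations -0.139, -0.109 and 0.03), which does not exclude pairing. With the number as a replicate block 7 Rab genes were higher and 4 lower (median 0.019), Rab3b, Rab36, Rab17, Rab14 and Rabggta lost their calls, and Rab3d gained one (adjusted p = 0.0368). Rab34 was called higher without WT replicate 1 (0.0373). The block gave 28 and 19 regulators and effectors and 2569 and 2502 of all genes. At this depth 9 Rab genes were too scarce to test.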
